A study of Mus musculus with 10 samples.

Results

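The genes described here are the amino acid and neurotransmitter transporters of the solute carrier families SLC1, SLC3, SLC6, SLC7, SLC36, SLC38 and SLC43, in primary mouse microglia. They were chosen by gene symbol alone, as every symbol of these families with a probe set row of its own, without Slc7a11, and where a symbol had several rows that with the highest level was kept. This gave 56 of 18976 genes. Slc7a6os, which lies on the opposite strand of Slc7a6 and encodes no transporter, was among the 56 through its name and is given apart, which leaves 55 transporters. Microglia were shaken off mixed glial cultures of newborn C57BL/6 wild-type mice, and their RNA was hybridised to 10 arrays. The labels gave 5 arrays of cells treated with 5 ng/ml recombinant human TGFb1 for 24 h and 5 of untreated control cells, all kept without serum during that time. The number of arrays limits the precision. The sources used here do not state if each array had a culture of its own.

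The study asked how TGFb1 altered gene expression in microglia. The table's values per array carried names that no label tied to a treated or an untreated sample, so they were not used, and no transporter is compared between TGFb1-treated and control cells here. What the text gives is the level of each transporter, meaning the authors' median expression, a linear intensity after their normalization. The header does not say over which arrays that median runs, and it comes without an SD, so no error stands beside a level and the order of genes with near levels cannot be resolved. An intensity is not scaled by transcript length and also depends on how well the probes of a gene bind, so a ratio of levels between genes is a ratio of intensities and not of molecules.

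Cells take up and exchange amino acids through carriers that differ in their substrates and in what drives them. The heterodimeric transporters of SLC7 exchange amino acids across the membrane and need a heavy chain of SLC3 to reach the surface, whereas SLC38 carriers use the sodium gradient and SLC36 carriers use protons. SLC1 and SLC6 include the carriers that clear glutamate, GABA, glycine and monoamines from the space around synapses, which in the brain are best known from astrocytes and neurons. Some carriers act on lysosomes, from where amino acids are returned to the cytosol and sensed by the kinase complex mTORC1.

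The carriers of taurine and creatine, the heavy chain CD98 and several carriers of neutral amino acids were far above the median gene, whereas the carriers of glutamate and monoamines were in the low signal range, at or below the 95th percentile of the olfactory receptor genes, except Slc1a1 at its upper edge. Of the 55 transporters, 20 were at or above the level of the median gene, 15.8, a share of 36.4%, against 9468 of the 18921 other genes. Slc6a6 had the highest value at 2472, too near to Slc3a2 at 2450 to be ordered against it. Slc6a15 had the lowest value at 2.13, within the low signal range, where the order of genes carries no weight. In all, 2 transporters were more than 100 times the median gene, 9 lay from 10 to 100 times and another 9 from 1 to 10 times, while 35 were below it. The median over the transporters was 8.33, against 15.8 over all other genes and 19.4 over 273 other solute carrier genes, of which 52.7% reached the median gene. The upper quartile of the transporters, 78.2, was above the 73.4 of all other genes. On either side of the median gene stood Slc36a2 at 17.7 and Slc1a4 at 12.6.

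**Figure D1:**
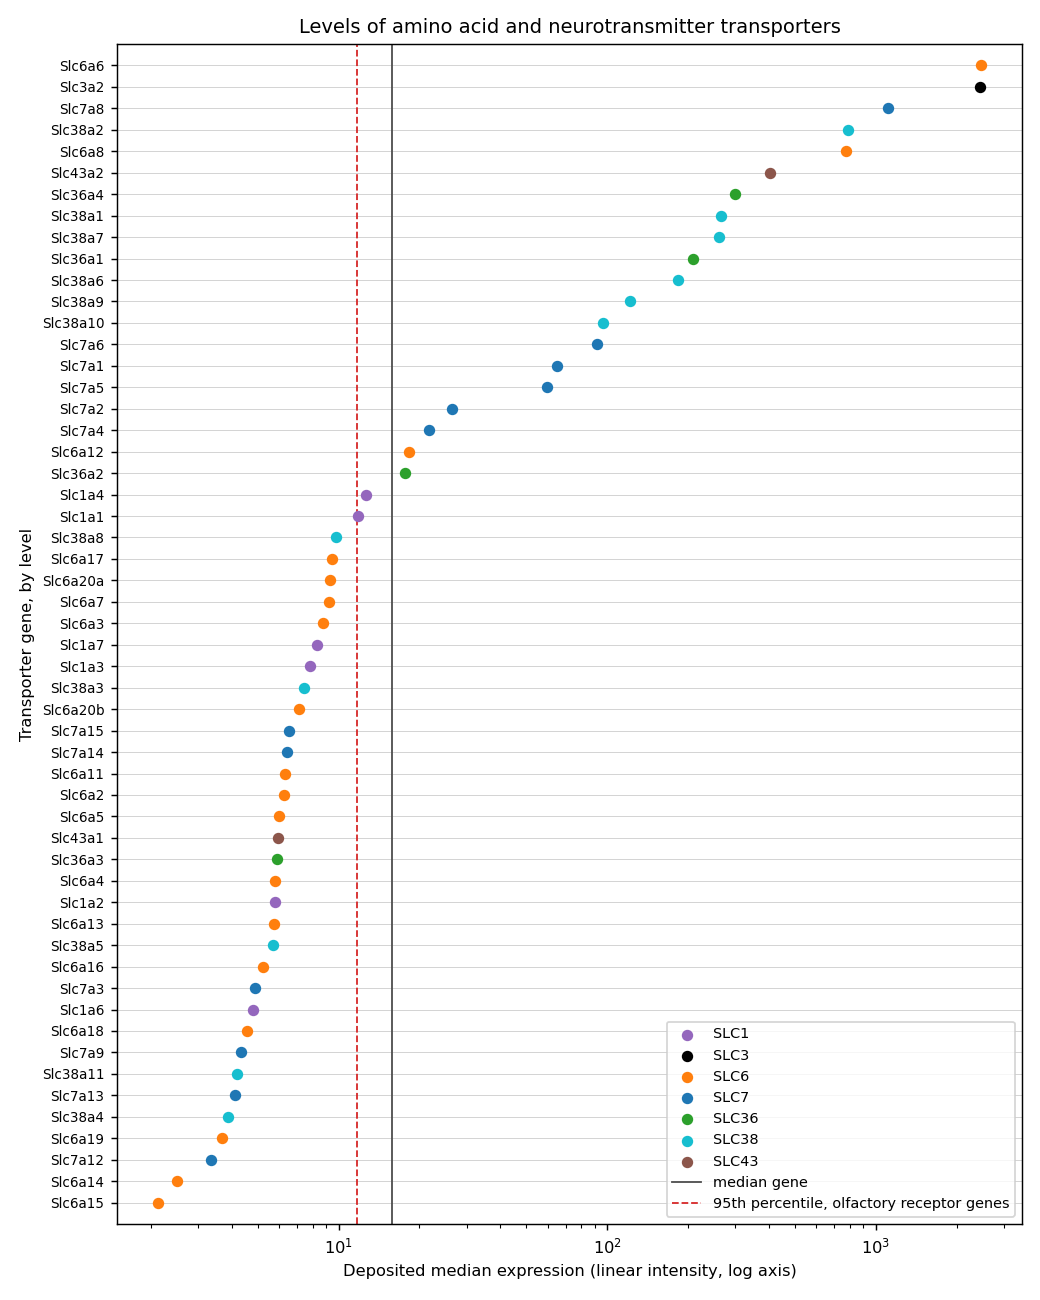
Deposited median expression of 54 transporters (linear intensity, log axis), 1 point a gene, coloured by solute carrier family, with lines at the median gene (15.8) and at the 95th percentile of the olfactory receptor genes (11.7). Slc6a6 and Slc3a2 stand at about the same level at the top, and the 32 transporters left of the dashed line are mostly of SLC6, SLC7, SLC38 and SLC1.

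Olfactory receptor genes served as a measure of low signal on the same arrays, since these sensory receptors are known for their expression in olfactory neurons. Their 365 genes had a median of 3.84 and a 95th percentile of 11.7, and 19 of them were above that value, up to 166. Above it were 22 of the 55 transporters, a share of 40.0%, against 56.2% of all other genes. The last to pass were Slc1a4 at 12.6 and Slc1a1 at 11.8, and the next below was Slc38a8 at 9.75. A level in this range does not show that a transcript was absent. It shows that its intensity was no higher than that of the upper olfactory receptor genes.

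**Figure D2:**
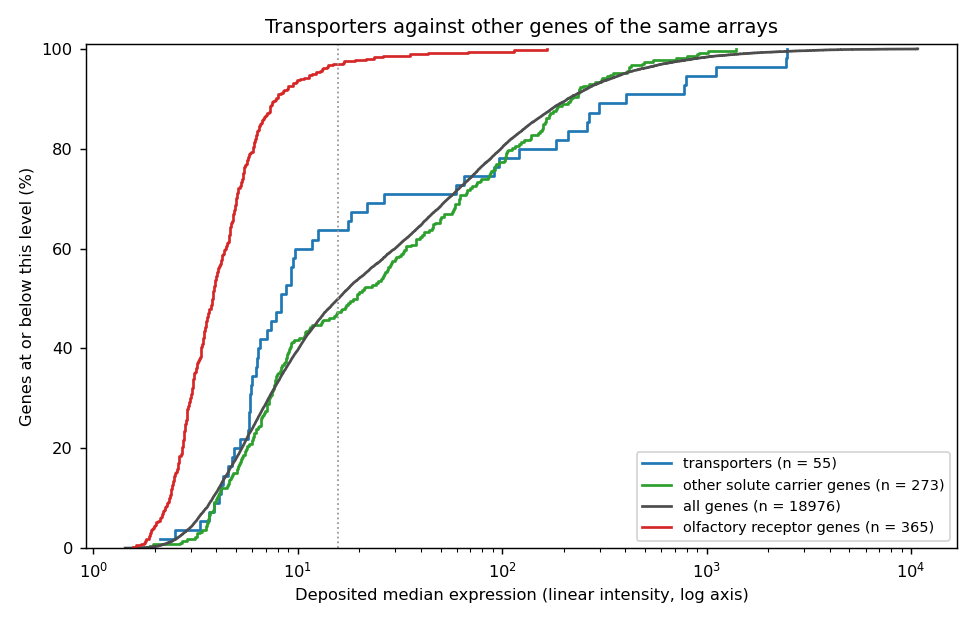
Share of genes at or below each level (linear intensity, log axis) for the 55 transporters, 273 other solute carrier genes, all 18976 genes and 365 olfactory receptor genes, with a dotted line at the median gene. The curve of the transporters runs above those of all genes and of the other solute carriers near 10 and meets them again near 60.

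The cells carried the markers of microglia. All 14 microglia markers were above the median gene, among them the complement gene C1qb at 4508, Tyrobp at 3154 and Csf1r, the receptor for colony-stimulating factor, at 1721, with P2ry12 the lowest at 40.4. Of 11 astrocyte markers 2 reached the median gene, Aldoc at 48.9 and Aldh1l1 at 28.6, while Gfap was at 12.1, Aqp4 at 4.67 and Gja1 at 4.31. None of 6 neuron markers reached it, the highest being Gap43 at 9.89. Of 10 oligodendrocyte lineage markers Cnp, Cspg4 and Mbp reached it, at 86.6, 58.0 and 56.7, with Olig2 at 3.49, and Flt1 at 41.0 was the single one of 5 endothelial markers. The fibroblast and meningeal list had 2 of 6, Col3a1 at 18.9 and Col1a1 at 18.8. Markers of border macrophages were mixed, with 4 of 6 at or above the median gene, Ms4a7 at 2052 and Mrc1 at 156 among them and Cd163 at 5.84. How many other cells the cultures held was not measured, and the part of such cells in any transporter's level was not tested. In RNA from many shaken-off cells together, fewer cells with a transcript and less of it per cell cannot be told apart.

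Slc3a2 (probe set 10465772), which encodes the heavy chain CD98 that brings several SLC7 light chains to the cell surface, was at 2450. That placed it at the 99.5th percentile of all genes. The light chains of SLC7 ranged from the low signal range to the upper levels of the set. Slc7a8, the light chain LAT2 for neutral amino acids, was at 1109 and Slc7a6, which exchanges cationic for neutral amino acids, at 91.6. Slc7a5, the light chain LAT1 for large neutral amino acids, was at 59.6. Slc7a15, Slc7a9, Slc7a13 and Slc7a12 were at 6.56, 4.32, 4.13 and 3.33, all inside the range of the olfactory receptor genes. Of these, Slc7a9 encodes the light chain that pairs with the other heavy chain, Slc3a1, in kidney and gut.

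Of the 5 cationic amino acid carriers and close relatives, 3 were above the median gene and 2 in the low signal range. Slc7a1, which encodes the widely used cationic carrier CAT1, was at 64.8, the 72.9th percentile. Slc7a2, encoding CAT2 and known in macrophages as a supplier of arginine, was at 26.3. Slc7a4, a relative whose substrate is not settled, was at 21.7. Slc7a3 and Slc7a14 were at 4.89 and 6.43, below the olfactory receptor range's upper end. The opposite-strand gene Slc7a6os was at 35.5.

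The sodium-coupled SLC38 carriers of neutral amino acids, for which glutamine is a main substrate, had 6 of 11 members at or above the median gene. Slc38a2, encoding SNAT2, a carrier known to be induced when amino acids are scarce, was at 789, and Slc38a1, encoding SNAT1, was at 265. Slc38a7, a carrier that exports glutamine from lysosomes, was at 261 and Slc38a9, the lysosomal carrier that reports arginine to mTORC1, was at 121. Slc38a6 and Slc38a10 were at 183 and 96.4. The other 5 members, Slc38a8, Slc38a3, Slc38a5, Slc38a11 and Slc38a4, were between 9.75 and 3.89. Slc38a3, a glutamine carrier known from astrocytes and liver, was at 7.42, and its relative Slc38a5 at 5.70.

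In the proton-coupled family, Slc36a4 was at 299 and Slc36a1, which encodes the lysosomal and plasma membrane carrier PAT1, at 209. Slc36a2, a carrier of glycine and proline, was at 17.7 and Slc36a3 at 5.87. Of the SLC43 carriers, Slc43a2, encoding the facilitated carrier LAT4 for large neutral amino acids, was at 405 and its close relative Slc43a1, encoding LAT3, at 5.94, in the low signal range.

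Carriers of SLC6 stood both at the upper end of the whole set and in its low signal range. Slc6a6 (probe set 10540122), encoding the taurine carrier, was at 2472, and Slc6a8 (probe set 10600210), encoding the creatine carrier, was at 772. Slc6a12, a carrier of betaine and GABA, was just above the median gene at 18.3. The GABA carriers Slc6a11 and Slc6a13 were at 6.32 and 5.75. The carriers of dopamine, noradrenaline and serotonin, Slc6a3, Slc6a2 and Slc6a4, were at 8.72, 6.26 and 5.81. The 10 carriers of glycine, proline and other amino acids lay between 9.46 for Slc6a17, a carrier of synaptic vesicles, and 2.13 for Slc6a15. Slc6a5, the neuronal glycine carrier, was at 5.99 and Slc6a7, the proline carrier, at 9.24. Slc6a20a at 9.31 and Slc6a20b at 7.11 are close relatives, and whether their probes separate them was not tested.

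None of the glutamate carriers of SLC1 reached the median gene. Slc1a1, a carrier of neurons and epithelia, was at 11.8. Slc1a3 and Slc1a2, the main glutamate carriers of astrocytes, were at 7.85 and 5.79. The 11 astrocyte markers were mixed. Aldoc at 48.9 and Aldh1l1 at 28.6 reached the median gene, and 9 did not, Gfap at 12.1 and Aqp4 at 4.67 among them. Slc1a7, known from the retina, was at 8.33 and Slc1a6, known from Purkinje cells, at 4.78. Slc1a4, which exchanges alanine, serine and cysteine, was at 12.6.

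For 5 transporters the table held a second row, and the rows disagreed. The 2 rows of Slc38a2 were at 789 and 15.9, a ratio of 49.7. For Slc38a10 they were at 96.4 and 6.27, for Slc38a9 at 121 and 17.9, for Slc38a1 at 265 and 39.4 and for Slc1a1 at 11.8 and 4.91. The median ratio of these 5 was 6.78, against 2.10 over all 1185 genes with several rows. In Slc38a10 the lower row fell below the median gene, while in Slc38a1 and Slc38a9 both rows were above it. The lower row of Slc38a2, at 15.9, was too near the median gene at 15.8 to be placed above or below it. Slc1a5, Slc7a7 and Slc43a3 were not analysed here. Rows that name a further gene cannot be given to a transporter alone. The 2 rows of Slc3a1 with Prepl were at 56.5 and 7.09, the row of Slc6a9 with Ccdc24 at 71.5, the 2 rows of Slc7a10 with Lrp3 at 10.9 and 8.14, and a row that Slc1a1 shares with Ppapdc2 and 4430402I18Rik at 6.48.

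Some transporter genes lie in clusters in the genome. In the RefSeq gene order of GRCm38.p6, 8 pairs of them had at most 2 protein-coding genes between them. Slc38a2 lies between Slc38a1 and Slc38a4. Slc38a4, at 3.89, was in the low signal range, and both rows of Slc38a2, at 789 and 15.9, and of Slc38a1, at 265 and 39.4, were above that range. Which of Slc38a1 and Slc38a2 was the higher depended on the row taken. Slc36a1, Slc36a2 and Slc36a3 lie in a row as well, with Slc36a1 at 209 and Slc36a2 at 17.7, and Slc36a3, at 5.87, in the low signal range. In the other 4 pairs, all of SLC6, the levels differed by a ratio of 1.24 to 3.18, and of their genes Slc6a12 alone reached the median gene.

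The sequences around the start sites of a high and a low gene from each of the 2 clusters are printed here. In each printed pair, 1 gene was above the low signal range and the other within it. Slc38a1 and Slc36a2, of the same clusters, were also above that range and are not printed. Slc38a2 and Slc38a4 are adjacent, and Slc36a2 lies between Slc36a1 and Slc36a3. These sequences were chosen after the levels were seen. Each runs from 250 bases before to 50 after the annotated start, from RefSeq on GRCm38.p6, with every CG dinucleotide in capitals. Slc38a2 is at chr15:96699679-96699978 on the minus strand, Slc38a4 at chr15:97055907-97056206 on the minus strand (the most upstream of its 3 annotated starts), Slc36a1 at chr11:55204090-55204389 on the plus strand and Slc36a3 at chr11:55151659-55151958 on the minus strand.
Slc38a2: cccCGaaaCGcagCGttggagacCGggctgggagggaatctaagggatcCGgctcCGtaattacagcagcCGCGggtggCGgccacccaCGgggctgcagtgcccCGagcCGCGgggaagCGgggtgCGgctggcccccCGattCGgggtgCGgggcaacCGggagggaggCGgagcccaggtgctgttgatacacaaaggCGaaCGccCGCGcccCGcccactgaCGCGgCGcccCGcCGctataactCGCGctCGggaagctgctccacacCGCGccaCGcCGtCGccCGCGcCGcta
Slc38a4: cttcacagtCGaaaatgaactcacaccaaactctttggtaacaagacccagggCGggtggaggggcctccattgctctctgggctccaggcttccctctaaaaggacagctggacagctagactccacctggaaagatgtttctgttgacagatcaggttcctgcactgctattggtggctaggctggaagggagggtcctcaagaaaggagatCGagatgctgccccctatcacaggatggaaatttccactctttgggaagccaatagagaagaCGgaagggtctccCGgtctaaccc
Slc36a1: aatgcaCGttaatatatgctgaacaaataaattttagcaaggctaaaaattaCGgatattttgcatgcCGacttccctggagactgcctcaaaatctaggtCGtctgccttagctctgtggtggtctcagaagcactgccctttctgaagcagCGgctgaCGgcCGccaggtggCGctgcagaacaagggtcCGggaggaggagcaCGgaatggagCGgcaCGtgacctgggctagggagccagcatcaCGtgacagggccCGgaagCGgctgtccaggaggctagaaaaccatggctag
Slc36a3: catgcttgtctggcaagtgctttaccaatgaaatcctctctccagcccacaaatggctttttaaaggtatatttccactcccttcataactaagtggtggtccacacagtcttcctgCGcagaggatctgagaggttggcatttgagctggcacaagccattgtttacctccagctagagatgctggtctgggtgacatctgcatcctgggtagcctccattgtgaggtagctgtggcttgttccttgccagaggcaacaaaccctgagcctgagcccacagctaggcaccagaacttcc

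CG was counted on the strand shown, which holds for both strands. Slc38a2 had 41 in its 300 bases and Slc38a4 had 5. Slc36a1 had 15 and Slc36a3 had 1. The median over all 32851 promoters of 27025 symbols, nearly all of them 300 bases long, was 7, with quartiles of 3 and 20. A symbol with several annotated starts was counted more than once. Among other transporters in the low signal range, counts were both high and low. Slc6a11 and Slc1a6, at levels of 6.32 and 4.78, each had 32, while Slc1a2 and Slc6a20b, at 5.79 and 7.11, each had 1. A promoter was held for 39 of the 55 transporters, 70.9%, so a comparison of CG content over the whole set was void.

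Transporters with a higher level were listed in more tissues. The table gives for each gene the tissues in which UniGene, a collection of transcript sequences, had recorded it. The 22 transporters above the olfactory receptor range had a median of 29 tissues, from 8 to 48, and the 33 others a median of 10, from 2 to 31, against 19 over all genes. Brain was listed for 21 of the 22 and 24 of the 33, against 12821 of all 18976 genes. The share in the second group was thus close to that of all genes. Every transporter had a tissue listed, but only 16913 of all genes did, so the median and share over all genes include genes with none. Whether other genes split by level differ likewise was not tested. Slc3a2 and Slc6a6 had 48 and 43 tissues. Slc36a4 and Slc38a6 had 14 each although they were at 299 and 183, and Slc1a3 had 31 although it was at 7.85. Genes listed in many tissues can also have more transcript sequences on record, and the part of that in this pattern was not tested.

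**Figure D3:**
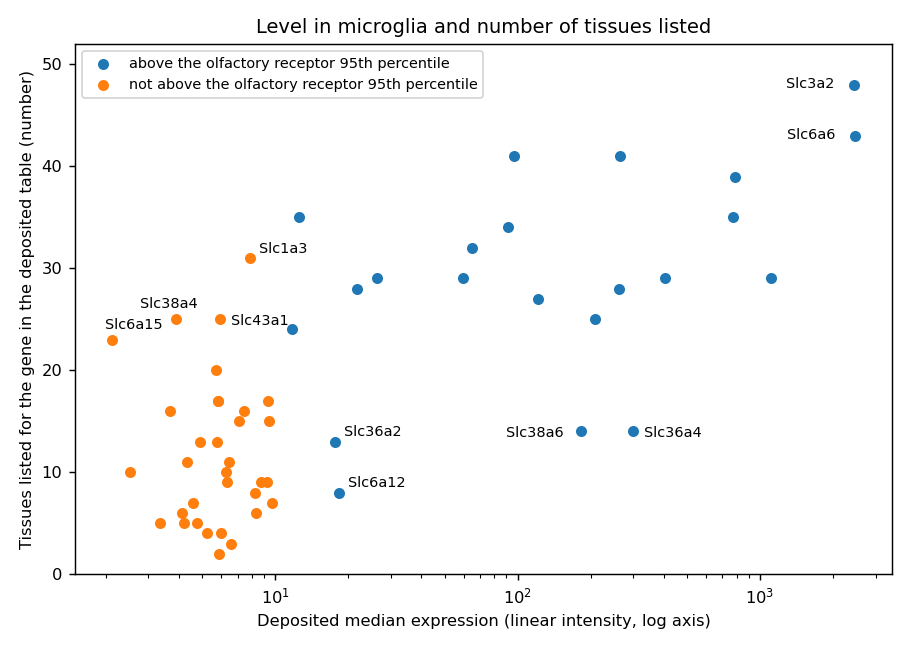
Number of tissues listed for each of the 55 transporters against its deposited median expression (linear intensity, log axis), coloured by whether the level was above the 95th percentile of the olfactory receptor genes. Most transporters above it had 24 or more tissues, and Slc36a2, Slc6a12, Slc36a4 and Slc38a6 had 14 or fewer.

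The table's function terms gave a mixed division. Of 18 transporters annotated with neurotransmitter transport, 3 reached the median gene, and of 30 annotated with amino acid transport 14 did. None of 3 with monoamine transport and none of 6 with dicarboxylic acid transport did. Among 5 annotated with L-amino acid transport 4 did, with a median of 59.6, while among 3 annotated with neutral amino acid transport 1 did, with a median of 5.70. These terms partly follow the families that chose the genes and overlap in their members, so they describe the set and are no independent grouping.

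The medians of 7 other lists of genes of amino acid use were above that of the transporters, which was not tested and does not hold for every list at its upper end. Of 20 listed aminoacyl-tRNA synthetase genes, whose enzymes load amino acids onto tRNA, 18 had a row of their own. All 18 were above the median gene, with a median of 99.8 and a range of 50.3 for Tars to 652 for Iars. Of 31 genes of amino acid sensing by mTORC1, 29 were above it, with a median of 73.6. Among these, Lamtor3 (Mapksp1 in the table) of the complex that holds mTORC1 on lysosomes was at 670, Sesn1, a sestrin, at 343 and Rragc, a Rag GTPase, at 262. Rragb at 3.72 and Sesn3 at 10.0 were the exceptions. Of 22 amino acid and amine transporters of other families, 11 were above the median gene. The highest were Slc15a3, which exports histidine and peptides from endolysosomes, at 1020, and Slc17a5, which exports sialic acid from lysosomes, at 798. Slc16a10, a carrier of aromatic amino acids, was at 284 and Ctns, the lysosomal cystine exporter, at 216. Of the vesicular carriers, Slc17a6, Slc17a7 and Slc17a8 for glutamate and Slc32a1 for GABA were between 4.18 and 8.88. Slc18a1 and Slc18a2, which load monoamines into vesicles, were at 23.0 and 6.59, and Slc18a3, which loads acetylcholine, was at 9.02.

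Of 17 enzymes of glutamate, glutamine, aspartate and GABA, 12 reached the median gene. Got2, the mitochondrial aspartate aminotransferase, was at 997 and Got1, its cytosolic counterpart, at 357, while Gad1 and Gad2, which make GABA, were at 11.5 and 5.09. Of 10 genes of glutathione synthesis and breakdown, 7 reached it, with Gclm and Gclc, the subunits of the rate-limiting enzyme, at 737 and 317. Of 10 arginine and polyamine genes 7 reached it, led by Sat1 at 900, while Arg1 and Nos2, which use arginine in activated macrophages, were at 5.22 and 10.1. Of 13 genes of branched-chain and tryptophan catabolism 6 reached it, with Bckdk at 117 and Bcat2 at 103, and Tdo2 was the lowest at 2.84. The highest level of this list, 117, was below that of 12 transporters.

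**Figure D4:**
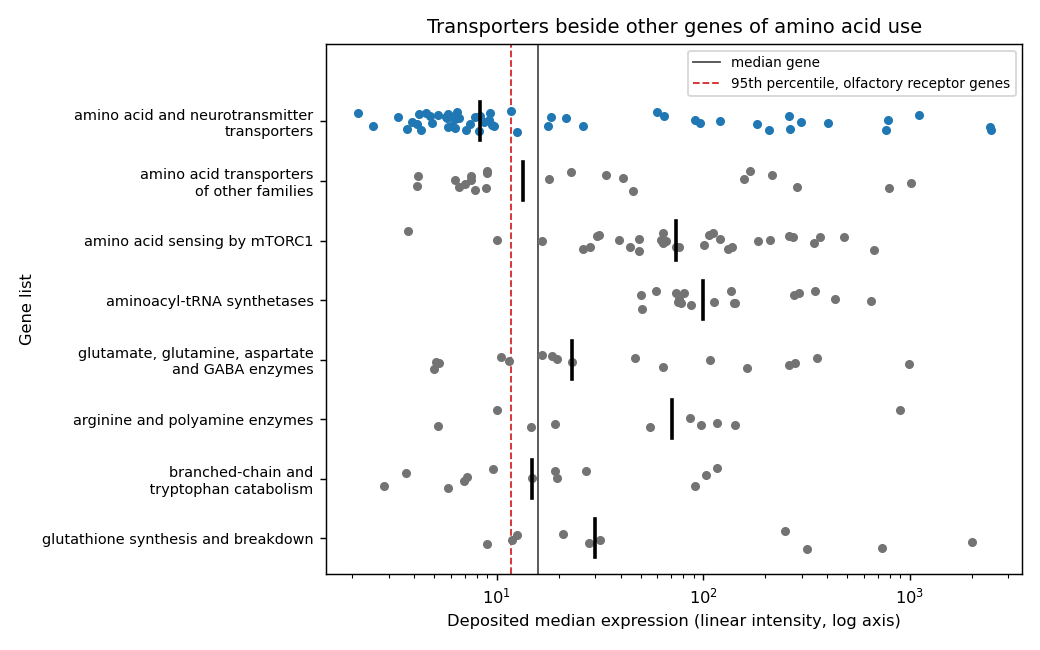
Deposited median expression (linear intensity, log axis) of the 55 transporters and of 7 other lists of genes of amino acid use, 1 point a gene, with a black bar at the median of each list and lines at the median gene and the 95th percentile of the olfactory receptor genes. The median of the transporters, 8.33, is the lowest of the 8, and that of the aminoacyl-tRNA synthetases, 99.8, the highest.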

How the data were processed

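Total RNA of primary mouse microglia was labelled with biotin and hybridised to Affymetrix whole transcript arrays, 5 of TGFb1-treated and 5 of control cells per the labels. For these cultures the array model and genome build were not given in the sources used here. The submitters' processing notes name RMA, with no version. One deposited table of 28361 probe set rows was used, of which 21041 name 1 symbol, 2247 several, 5061 none and 12 a date. Its median expression, a linear intensity as deposited by the authors, was the only measure used. A further 10 columns of values per array had names that no label matched, and 5 columns hold the authors' own paired comparison of the groups as effects, p-values and FDR. Neither kind was used, so the planned limma fits were not made and no gene was tested.

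The row with the highest level per symbol was kept, which gave 18976 genes. Percentiles give the share of these genes with a lower level. Of the genes in other lists, 6 were matched through an older symbol in RefSeq of GRCm38.p6. Listed genes with no row of their own were left out of the counts over those lists. Named by rule were every transporter at or above the median gene and the highest and lowest of each family. Others, and the olfactory receptor genes as a measure of low signal, were chosen after values were seen. The members and lists were chosen with earlier results of these data known. Row choice, percentile and CG counts were checked on made-up data. Some genes counted in the summaries are not reported here by name. Python 3.11.15, numpy 2.4.6, pandas 2.3.3, scipy 1.17.1 and matplotlib 3.10.9 were used.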

Additional observations from a re-analysis of the deposited data

How the results depend on the processing

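The share of transporters at or above the median gene, 36.4% (95% Wilson interval 24.9% to 49.6%, used to judge how far the share moved), was 38.3% over every row with a single symbol, 34.5% with the lowest row per symbol and 37.5% with Slc7a6os. Their median level of 8.33 was unaltered with the median over the rows of each symbol and 7.85 with the lowest row. With the median over rows, Slc38a2 was at 402, Slc38a1 at 152, Slc38a9 at 69.6, Slc38a10 at 51.3 and Slc1a1 at 8.34, the last then below the olfactory receptor genes' 95th percentile. The share above that percentile, 40.0%, was 54.5% with the 90th percentile (30 transporters), 29.1% with the 99th (16 transporters) and 36.4% with the lowest row per symbol. These, the addition of Slc7a6os and the median level with the lowest row were chosen after seeing the data. Levels without a value per array have no spread between replicates. No paired analysis was possible because the values per array could not be tied to the replicate numbers of the labels, and for the same reason the planned fits without the block, without single replicates, with other normalizations, filters and thresholds were not run.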
